A study of Mus musculus with 6 samples.

Results

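The cell cycle and DNA replication genes of mouse brown adipocytes were followed across 3 kinds of cell that differ in the PGC-1 coactivators. The genes were chosen by name: 42 genes for cyclins and their kinases, the replication machinery, mitosis, and the RB, E2F and p53 regulators. Of these, 40 had a probe set named for them alone, and each was represented by its brightest probe set over the 6 arrays. Ccnb1 and Trp53 were not analysed here. A filter on dim genes (mean over the 6 arrays at or above the 40th percentile of all probe sets, an intensity of 163.6) left 39 of the 40, among 13658 of the 18193 genes named on the array. Tyms, the thymidylate synthase gene, was the gene left out.

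The study grew brown preadipocytes, differentiated them for 7 days and measured total RNA on 6 one-colour arrays. The groups were wild type (n = 2 arrays), PGC-1alpha -/- cells expressing a control siRNA (knockout-control, n = 2) and PGC-1alpha -/- cells expressing an siRNA against PGC-1beta (knockdown, n = 2). All 6 samples came from cells immortalised with the SV40 large T antigen, so no group has an unmodified cell cycle. The design calls the replicates biological. The wild-type cells were at passage 4, and 1 of these samples is labelled as coming from a mouse of mixed background. No passage number is given in the sources used here for the knockout-control or knockdown cells. The sources used here do not say whether each kind is 1 clone, which part of PGC-1alpha is deleted or how old the mice were. No siRNA is named for the wild-type cells. The effects of genotype, of the siRNA vector, of passage and of the line itself therefore cannot be told apart in any comparison with wild type. Likewise, siRNA effects on other genes and the loss of PGC-1beta cannot be told apart in the knockdown comparison.

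In the cell cycle, D-type cyclins with Cdk4 and E-type cyclins with Cdk2 phosphorylate the RB family, which frees E2F factors to switch on the genes of DNA replication. The MCM complex then unwinds the DNA, and Cdk1 with A- and B-type cyclins drives mitosis. The inhibitors p21 (Cdkn1a) and p27 (Cdkn1b) hold the kinases back, and p21 is a classic target of p53. Adipocytes usually leave the cycle as they differentiate, and the large T antigen is known to bind both the RB family and p53.

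The promoters of these genes share short sequence elements that the choice by name did not use. RefSeq promoter windows (GRCm38.p6, 250 bases before to 50 after a gene's start) were found for 34 of the 42 genes, 38 windows in all, and were searched on both strands. An E2F element (TTTCCCGC, TTTGGCGC, TTTCGCGC or TTTGCCGC) stood in 9 of the 38 windows (23.7%), against 2.26% of all 32851 windows. The cell cycle homology region, CHR (TTTGAA), stood in 11 (28.9%, against 17.9% of all windows), and a CCAAT box in 27 (71.1%, against 37.4%). The E2F letters were in 4 of 6 MCM windows and in 0 of 8 windows of the mitosis genes. CHR letters were in 6 of 8 mitosis windows and 1 of 6 MCM windows. A pair of CATG cores of the p53 type with 6 bases between them, searched after the Cdkn1a sequence had been seen, was in 1 of the 38 windows, that of Cdkn1a, and in 0.712% of all windows. A match is a description of letters and not evidence of binding.

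The 180 bases before the start are shown for the genes whose values are given in most detail and for carriers of each element. Each is written 5′ to 3′ on the gene's strand, with capitals marking the E2F, CHR, CCAAT or p53-type letters on either strand. Adjoining capitals in Mcm6 are overlapping E2F matches.

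Cdkn1a, first listed start (chr17:29090799-29090978, plus strand): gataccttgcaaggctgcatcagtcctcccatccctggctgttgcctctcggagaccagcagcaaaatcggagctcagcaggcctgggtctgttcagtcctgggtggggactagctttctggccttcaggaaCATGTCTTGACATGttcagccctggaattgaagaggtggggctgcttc
Cdkn1a, other start (chr17:29093589-29093768, plus strand): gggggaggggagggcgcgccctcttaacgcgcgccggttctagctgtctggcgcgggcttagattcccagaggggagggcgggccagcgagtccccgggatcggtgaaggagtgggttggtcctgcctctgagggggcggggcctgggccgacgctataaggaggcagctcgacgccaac
Mcm7 (chr5:138171884-138172063, minus strand): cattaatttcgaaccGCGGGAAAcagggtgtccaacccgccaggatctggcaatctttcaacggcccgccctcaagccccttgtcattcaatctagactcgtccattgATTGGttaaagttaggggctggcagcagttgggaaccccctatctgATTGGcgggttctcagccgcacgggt
Mcm6 (chr1:128359706-128359885, minus strand): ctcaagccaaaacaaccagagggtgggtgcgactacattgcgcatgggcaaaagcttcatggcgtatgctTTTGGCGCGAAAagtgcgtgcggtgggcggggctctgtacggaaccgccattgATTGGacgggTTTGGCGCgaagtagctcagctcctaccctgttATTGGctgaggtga
Cdk1 (chr10:69352913-69353092, minus strand): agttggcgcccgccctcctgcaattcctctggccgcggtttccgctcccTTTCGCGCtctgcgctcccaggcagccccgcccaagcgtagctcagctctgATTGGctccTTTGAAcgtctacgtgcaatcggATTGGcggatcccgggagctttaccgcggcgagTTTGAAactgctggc
Kif11 (chr19:37376202-37376381, plus strand): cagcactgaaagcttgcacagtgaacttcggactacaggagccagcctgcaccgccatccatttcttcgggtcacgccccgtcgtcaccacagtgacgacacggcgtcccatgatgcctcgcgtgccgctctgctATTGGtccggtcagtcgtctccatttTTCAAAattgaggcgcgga
Cdc20 (chr4:118437344-118437523, minus strand): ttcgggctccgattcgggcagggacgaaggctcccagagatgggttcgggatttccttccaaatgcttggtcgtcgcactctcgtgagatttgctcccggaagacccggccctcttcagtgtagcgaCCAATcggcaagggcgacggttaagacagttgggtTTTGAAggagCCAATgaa
Kif23 (chr9:61946800-61946979, minus strand): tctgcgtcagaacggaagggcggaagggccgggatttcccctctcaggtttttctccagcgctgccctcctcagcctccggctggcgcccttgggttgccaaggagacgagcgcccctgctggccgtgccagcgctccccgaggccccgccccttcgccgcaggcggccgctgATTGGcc

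The 2 Cdkn1a windows differ in these elements: the first holds the p53-type pair (CATGTCTTGACATG), and the other holds none of the 4. Mcm7 also has 2 windows, of which the first listed is shown. Its other window (180 bases at chr5:138171267-138171446) holds a CCAAT box and no E2F element. Cdk1 carries an E2F element, CHR letters and CCAAT boxes together. In Kif23 only the CCAAT box lies before the start, and the CHR letters lie just after it.

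The targeted genes were read first. Ppargc1a (PGC-1alpha) stood at 1338 and 1319 in wild type, 767.4 and 830.4 in knockout-control, and 1146 and 647.8 in the knockdown group (-0.71 ± 0.24 in knockout-control, limma adjusted p = 0.125). With 1 row per probe set all 5 of its probe sets were lower in knockout-control, and 3 of them passed (limma adjusted p = 0.0371 to 0.0491). Signal remained in the knockout arrays, and whether its 5 probe sets lie in the deleted part is not known here. Ppargc1b (PGC-1beta) stood at 1862 and 2302 in knockout-control against 533.8 and 223.8 in the knockdown group, a fall of 5.53-fold (limma adjusted p = 0.022). The cells were then checked against marker genes. All 9 adipocyte markers with a probe set (Adipoq and Fabp4 among them) were above the filter, and their summed intensity ranged from 61519 to 78415 over the 6 arrays. Sums for the brown fat markers were 19650 to 21908 in wild type and knockout-control but 9885 and 7419 in the knockdown group. Within that list 5 of 7 markers were below 0 from wild type to knockout-control without passing, and Elovl3, a fatty acid elongase, rose 7.12-fold (limma adjusted p = 0.000349). The list and its sums include Ppargc1a itself, the gene targeted in the knockout, which was the lowest of the 7 (-0.71). Of markers of other cells, 4 of 6 for macrophages, 2 of 4 for endothelium and 3 of 5 for skeletal muscle were above the filter, and 0 of these were called in any comparison (limma, adjusted p under 0.05). Of 8 preadipocyte and fibroblast markers with a probe set, 7 were above the filter. The summed intensity of all 8 was 6201 and 5382 in wild type, 4882 and 5415 in knockout-control, and 6357 and 5896 in the knockdown group. From wild type to knockout-control 1 of the 7 rose (Gata3, 0.75, limma adjusted p = 0.0235) and 1 fell (Col1a1, -0.76, limma adjusted p = 0.0285). Of the 9 adipocyte markers 1 was called there, Cidec (0.83, limma adjusted p = 0.04). Over all genes 6.05% were called in that comparison. In bulk samples fewer cells of a type and less RNA per cell cannot be told apart. Array medians lay between 220.9 and 242.7, and the log2 values of both arrays of a group correlated across genes with r = 0.963 to 0.989.

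The first comparison asks which cell cycle genes differ between PGC-1alpha -/- cells with the control siRNA (knockout-control) and wild type. Of the 39 genes, 1 rose (Cdkn1a), 1 fell (Kif23) and 37 did not pass the test. Over all 13652 genes tested, 6.05% were called, 2.55% higher and 3.5% lower, so 2 of 39 is close to that background. The median log2 fold change was 0.11 for the 39 genes and 0.00 over all genes, and 24 of 39 were above 0, against 50% of all genes. The arrays of both groups did not overlap for 25 of the 39 genes, against 58.1% of all genes. Fold changes are on the scale of log2(intensity + 32) from one limma model over all 6 arrays, and adjusted p-values are by Benjamini-Hochberg over all genes tested.

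**Figure D1:**
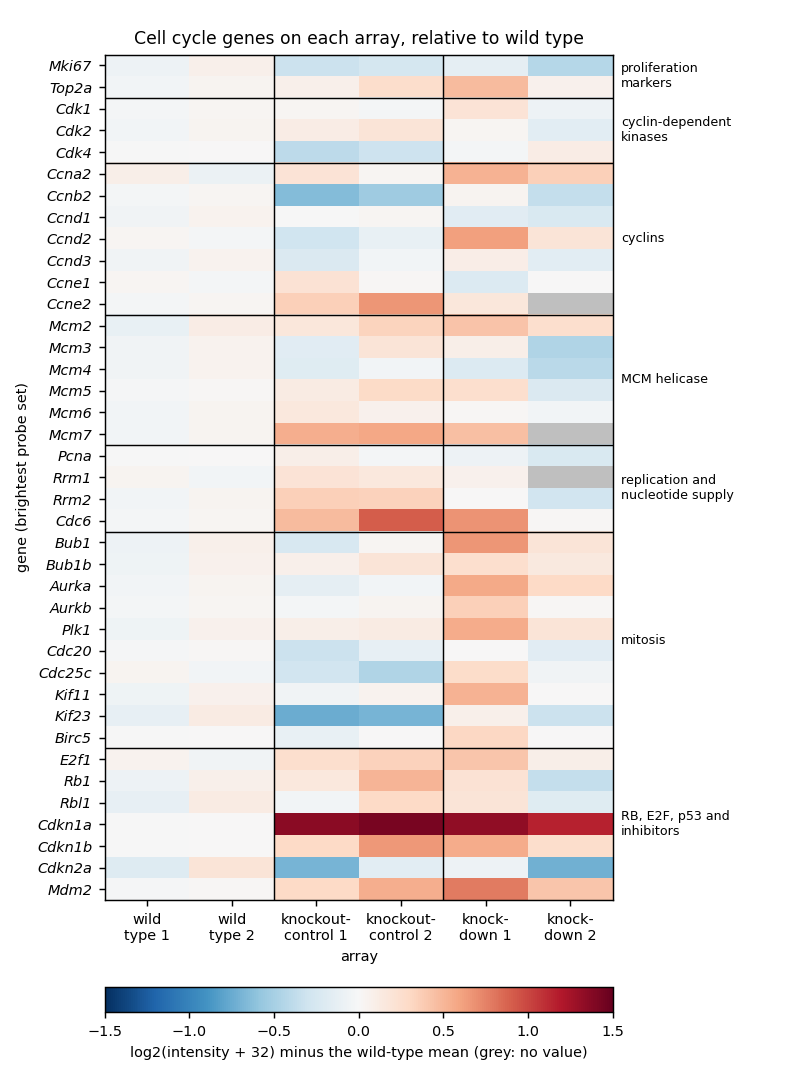
Colour gives log2(intensity + 32) on each array (columns) minus the mean of both wild-type arrays, for the 39 genes (rows, brightest probe set) grouped by role, with grey cells where an array has no value. Cdkn1a is the darkest row, on all 4 knockout arrays, and most other rows stay pale, with knockdown array 1 redder than knockdown array 2.

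Cdkn1a encodes p21, an inhibitor of the cyclin-dependent kinases. Its brightest probe set (1424638_at) read 1830 and 1846 in wild type, 4754 and 5004 in knockout-control, and 4678 and 4120 in the knockdown group. All 4 knockout arrays lay above both wild-type arrays, with no overlap. The rise was 2.62-fold in knockout-control (log2 fold change 1.39 ± 0.14 SE, 95% interval 1.07 to 1.72, limma adjusted p = 0.00124) and 2.37-fold in knockdown cells (1.24 ± 0.14, limma adjusted p = 0.00184), both against wild type. Both calls held in all 6 fits that left out 1 array, with the highest limma adjusted p at 0.0163 and 0.0207.

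The other probe set of Cdkn1a (1421679_a_at) did not show this rise. It stood at 1889 and 2070 in wild type, 1538 and 2030.3 in knockout-control, and 1898 and 1085 in the knockdown group, so the groups overlapped. Fitted with 1 row per probe set, its log2 fold change was -0.16 ± 0.26 in knockout-control and -0.45 ± 0.26 in knockdown cells against wild type (limma adjusted p = 0.792 and 0.315). With the mean of both probe sets Cdkn1a lost both calls, at 0.62 and 0.39 (limma adjusted p = 0.134 and 0.27), so both calls rest on 1 of its 2 probe sets. Which transcripts each probe set reads is not known here.

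**Figure D2:**
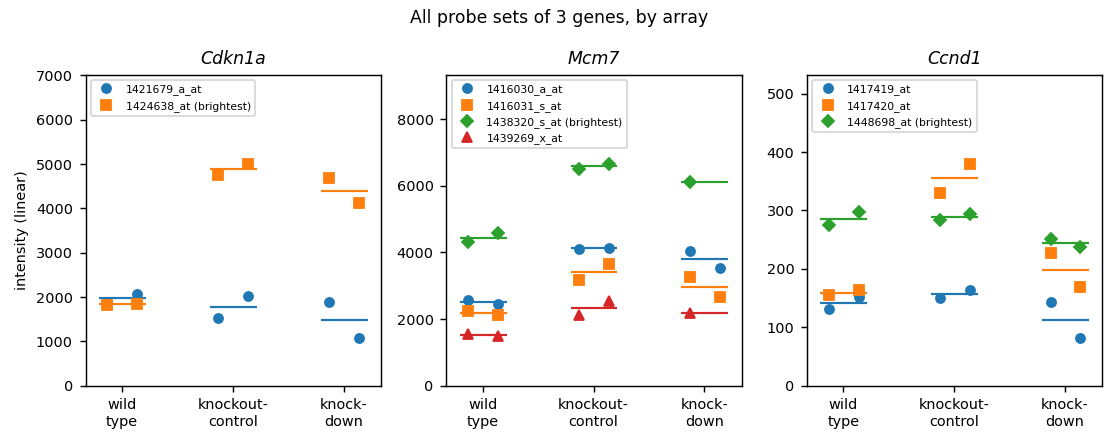
Linear intensity (y axis) of every probe set of Cdkn1a, Mcm7 and Ccnd1 on each array, with 2 points per group and a line at their mean (1 point where the other array has no value). One Cdkn1a probe set steps up in both knockout groups while the other does not, with means of 1979, 1784 and 1491 and overlapping arrays; all 4 of Mcm7 step up together, and 1 of 3 of Ccnd1 is higher in knockout-control.

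Kif23 encodes a kinesin of the central spindle that is needed for cytokinesis. It stood at 443.1 and 528.3 in wild type, 275.7 and 285.6 in knockout-control and 511.5 and 381.6 in the knockdown group. Both knockout-control arrays were the lowest of the 6. The fall was 1.65-fold (-0.72 ± 0.17, 95% interval -1.12 to -0.32, limma adjusted p = 0.0488) and was lost when any 1 of these 4 knockout-control or wild-type arrays was left out (limma adjusted p up to 0.374). Its other 2 probe sets were below the filter, and with 1 row per probe set Kif23 was not called (limma adjusted p = 0.0506).

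Neither proliferation marker passed in this comparison. Mki67, the gene of the Ki-67 antigen of cycling cells, stood at 1490.3 and 1666 in wild type, 1251 and 1306 in knockout-control, and 1430.5 and 1165 in the knockdown group. Both wild-type arrays were above the 4 others, at a log2 fold change of -0.30 ± 0.16 in knockout-control (95% interval -0.65 to 0.06, limma adjusted p = 0.33). Top2a, the topoisomerase that untangles replicated DNA, stood at 2119 and 2241, 2307 and 2619.9, and 3047 and 2276 in the same order of groups. Its value was in the other direction (0.17 ± 0.17, limma adjusted p = 0.647), so the markers do not move one way.

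Among the kinases, Cdk1, which drives entry into mitosis, stood at 3857 and 4002 in wild type, 3997 and 3858 in knockout-control, and 4530.3 and 3724 in the knockdown group. All 3 groups overlapped, and the 95% interval of the first difference ran from -0.35 to 0.35. Cdk2, the partner of cyclins E and A, had a log2 fold change of 0.16 ± 0.14, and Cdk4, the partner of D-type cyclins, had -0.35 ± 0.14. Cdk4 was lower on both knockout-control arrays (2451 and 2595) than on the other 4 (3167 to 3490.5), yet did not pass (limma adjusted p = 0.191). Its 95% interval of -0.67 to -0.04 leaves out 0 before adjustment.

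Of 7 cyclins above the filter, 0 passed in this comparison. Ccnb2, a mitotic B-type cyclin, stood at 2799 and 2937 in wild type and 1812 and 1964 in knockout-control, with no overlap (-0.60 ± 0.17, limma adjusted p = 0.0784). Ccne2, a cyclin of the start of S phase, stood at 1971 and 2042 against 2585 and 3199 (0.51 ± 0.16, limma adjusted p = 0.124). Ccnd1, Ccnd2 and Ccnd3, the D-type cyclins, had log2 fold changes of 0.01, -0.21 and -0.12, and Ccna2 and Ccne1 each 0.12. The cyclins thus lay on both sides of 0, with a median of 0.01.

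All 6 MCM helicase genes were measured, and 5 of them had values above 0 in knockout-control, at a median of 0.16. Mcm7 was highest, with 4320.3 and 4572 in wild type, 6510.4 and 6659 in knockout-control, and 6104 on knockdown array 1, the other cell being empty. Both knockout-control arrays were above both wild-type arrays (0.56 ± 0.14, limma adjusted p = 0.0664). Apart from fits with an array left out, Mcm7 passed in 6 of 10 alternative settings (limma adjusted p from 0.00759 to 0.186). All 4 Mcm7 probe sets had values above 0, at log2 fold changes of 0.56 to 0.71, and 1 of them (1416030_a_at) passed when fitted with 1 row per probe set (0.71 ± 0.15, limma adjusted p = 0.0289). Of 80 probe sets of these genes in that fit, 3 rose and 0 fell, against 6.32% of all probe sets called. The other MCM genes, Mcm2 to Mcm6, lay between -0.11 and 0.25 and did not pass. Mcm2 stood at 2333 and 2712, 2829 and 3167, and 3402 and 3003 in the 3 groups.

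Pcna, the sliding clamp of DNA polymerase, stood at 9117 and 9153 in wild type, 9747 and 8959 in knockout-control, and 8684 and 7763 in the knockdown group. Wild type and knockout-control overlapped (0.03 ± 0.14, 95% interval -0.29 to 0.36). Cdc6, which loads the MCM complex, was less even: wild type gave 334.7 and 349, and knockout-control gave 488.1 and 668.9 (0.69 ± 0.23, limma adjusted p = 0.133). Rrm1 and Rrm2, subunits of ribonucleotide reductase, which supplies deoxynucleotides, had values of 0.18 ± 0.15 and 0.35 ± 0.15. None of these 4 passed in limma, where 10 of the 39 genes had an unadjusted p under 0.05, 25.6% against 21.1% of all genes.

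Among the 10 mitosis genes, 3 had values above 0 and 7 below, and Kif23 alone passed. Aurka and Aurkb (Aurora kinases), Plk1 (Polo-like kinase), Bub1 and Bub1b (spindle checkpoint), Birc5 (survivin) and Kif11 (a spindle kinesin) lay between -0.10 and 0.14. Cdc20, an activator of the anaphase-promoting complex, was at -0.23 ± 0.15, and Cdc25c, a phosphatase that activates Cdk1, at -0.37 ± 0.16. The mitosis genes as a group stood near 0, at a median of -0.07.

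The regulators apart from Cdkn1a did not pass. E2f1, a factor that switches on replication genes, stood at 1199 and 1114 in wild type, 1377 and 1475 in knockout-control and 1558 and 1230.0 in the knockdown group (0.29 ± 0.16 for the first step, limma adjusted p = 0.342). Rb1, the retinoblastoma gene, stood at 1371 and 1535, 1619 and 2072, and 1696 and 1128, and its relative Rbl1 (p107) at 866.8 and 1042, 925.5 and 1180.5, and 1091 and 833.1. For Rb1 both knockout-control arrays were above wild type and the knockdown arrays spanned it, while for Rbl1 all groups overlapped.

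Cdkn2a, whose products p16 and p19ARF restrain Cdk4 and Mdm2, stood at 1505 and 1992 in wild type, 1059 and 1544 in knockout-control, and 1638 and 1034 in the knockdown group. All groups overlapped, and the widest interval of the 39 genes was its own (-1.03 to 0.17). Cdkn1b, which encodes p27, was at 0.47 ± 0.17 (limma adjusted p = 0.163). Mdm2, the ubiquitin ligase that degrades p53 and is itself a p53 target, stood at 1028 and 1061, 1296 and 1538, and 1814 and 1401. All 4 knockout arrays were above wild type, and the value was 0.42 ± 0.17 in knockout-control (limma adjusted p = 0.203) and 0.60 ± 0.17 in knockdown cells (limma adjusted p = 0.0646).

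**Figure D3:**
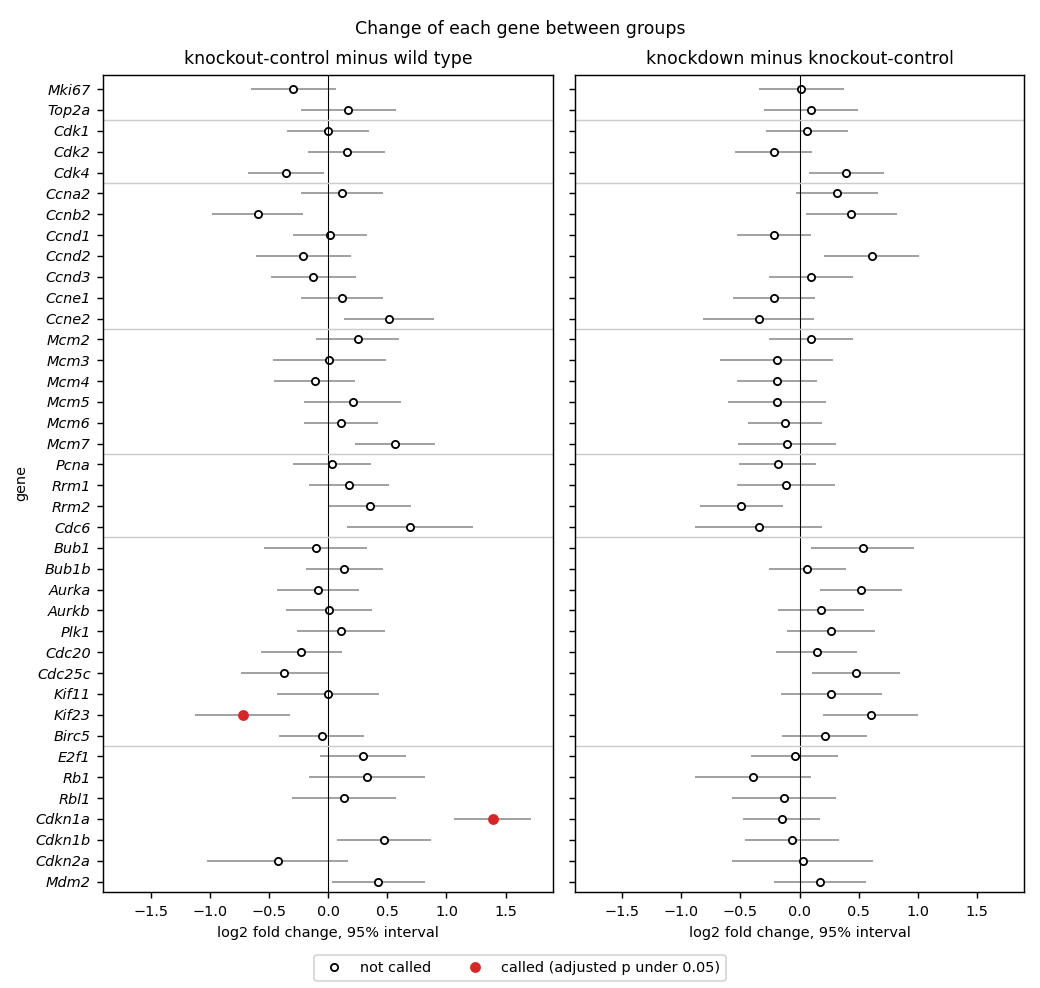
Log2 fold change (x axis) of each of the 39 genes with its 95% interval from the limma fit, for knockout-control minus wild type (left) and knockdown minus knockout-control (right), grouped by role. Red points mark the called genes, Cdkn1a and Kif23 on the left and none on the right, and the mitosis genes on the right all lie above 0 in these brightest probe sets (Aurka turns with the mean of its probe sets). A dimmer Cdc25c probe set, not drawn, was below 0 in the comparison on the right.

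The step from knockout-control to knockdown asks which genes differ between cells with the siRNA against PGC-1beta and cells with the control siRNA. Of the 39 genes, 0 rose and 0 fell in limma, against 0.835% of all 13649 genes called in this comparison, and 8 had an unadjusted p under 0.05 (20.5%, against 14.1% of all genes). The median log2 fold change was 0.03, against -0.01 over all genes, and 17 of the 36 genes with a value on all arrays of both groups did not overlap, against 38.5% of all genes. The 95% interval included 0 for 31 of the 39 genes and lay wholly within a log2 change of 1 either way for 37, so smaller differences are not excluded. In the same comparison Ucp1, the uncoupling protein of brown fat, fell 24.9-fold (limma adjusted p = 3.44e-05), and 4 of 7 brown fat markers fell. Of the 7 preadipocyte and fibroblast markers above the filter, Dlk1 alone passed (3.53-fold higher, limma adjusted p = 0.00696), while 3 of the 7 were above 0 and 4 below, at a median of -0.07. The part of these markers in the values of the cell cycle genes was not tested.

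The roles lay on different sides of 0 in this step, though no gene passed. All 10 mitosis genes had log2 fold changes above 0 in their brightest probe sets (Aurka turned with the mean of its probe sets), from 0.06 (Bub1b) to 0.60 (Kif23), at a median of 0.27, against 48.9% of all genes above 0. Of the 6 MCM genes 1 was above 0 (median -0.16), and of the 4 genes for replication and nucleotide supply 0 were (median -0.27). Kif23 (0.60 ± 0.17), Bub1 (0.53 ± 0.19), Aurka (0.52 ± 0.15) and Cdc25c (0.48 ± 0.16) were the highest of the mitosis genes, and Rrm2 (-0.49 ± 0.15) the lowest of the replication genes. Their limma adjusted p-values lay between 0.169 and 0.262. The knockout-control arrays of this step are also those of the first comparison, so the values of both are not independent. There the counts above 0 were 3 of 10 for mitosis, 5 of 6 for MCM and 4 of 4 for replication and nucleotide supply. From wild type to knockdown cells they were 8 of 10, 3 of 6 and 2 of 4, at medians of 0.19, 0.00 and -0.04.

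Array values show how even the differences of the knockdown step were. Aurka stood at 956.3 and 1019 in knockout-control and at 1573 and 1296 in the knockdown group, with no overlap. Bub1 stood at 433.2 and 528.3 against 836.3 and 595.8, also with no overlap. Rrm2 stood at 6226 and 6190.0 against 4871 and 3982, the opposite order. Cdc25c stood at 216.6 and 189.8 against 335.2 and 259.7 in its brightest probe set. Its other probe set, also above the filter, gave 195.0 and 196.3 against 236.4 and 119.0. That probe set was at -0.18 ± 0.25 with 1 row per probe set. Ccnd2, a D-type cyclin, stood at 1235 and 1409 against 2351 and 1748 (0.61 ± 0.18, limma adjusted p = 0.163), and all 6 of its probe sets above the filter were higher in knockdown cells, by 0.51 to 0.76.

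Both knockdown arrays differed from each other across the table. Of 36 cell cycle genes with a value on both, 34 were higher on knockdown array 1 (94.4%), against 74% of all genes, at a median log2 gap of -0.31 from array 1 to array 2, against -0.20 over all genes. In knockout-control, array 2 was the higher for 31 of 39 genes, against 69.6% of all genes. All 10 mitosis genes stayed above 0 in each of the 6 fits that left out 1 array, with medians of 0.07 without knockdown array 1 and 0.49 without knockdown array 2. The MCM count was 1 of 5 and 3 of 6 in those fits, and the replication and nucleotide genes stayed at 0 of 3 and 0 of 4. With each array set to one median, the counts were again 10 of 10, 1 of 6 and 0 of 4. With the mean of probe sets 8 of the 9 mitosis genes then above the filter were above 0, and Aurka turned to -0.05 (limma adjusted p = 0.924). Its other probe set, which is below the filter, stood at 25.3 and 36.8 in knockout-control and at 7.36 and 10.7 in the knockdown group.

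**Figure D4:**
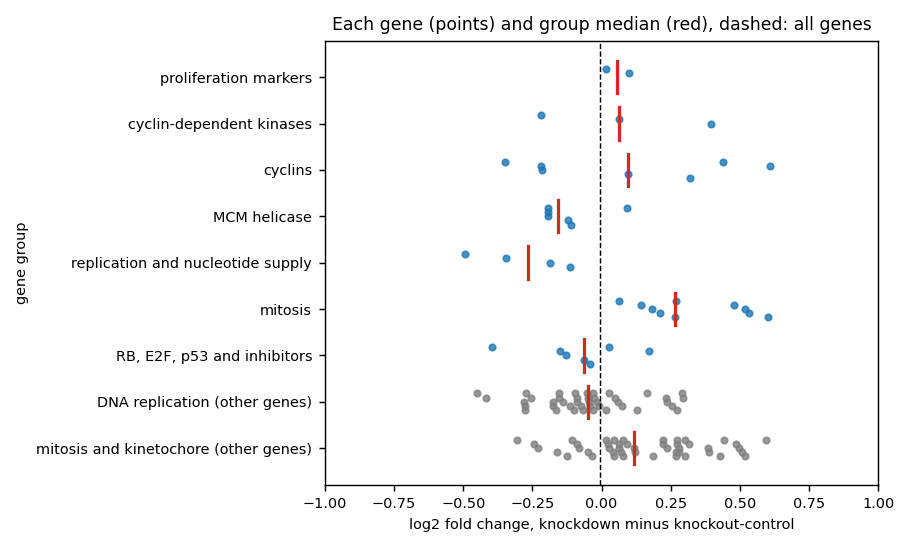
Log2 fold change from knockout-control to knockdown (x axis) of each gene, by group (y axis), with the group's median in red and the median of all genes dashed; blue points are the 39 genes and grey points other genes of replication and mitosis. The 10 mitosis genes lie right of 0 in their brightest probe sets (Aurka turns with the mean of its probe sets), and the replication and nucleotide genes lie left of it. A dimmer Cdc25c probe set, not drawn, was at -0.18.

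Other genes of the same processes, listed by name, were set beside them. Of 46 further genes of mitosis and the kinetochore, 36 were above 0 in the knockdown step (78.3%, median 0.12), and of 42 further replication genes 13 were (31%, median -0.05). None of either list passed in limma, where 7 and 2 had an unadjusted p under 0.05 (15.2% and 4.76%, against 14.1% of all genes). These counts moved with single arrays. The mitosis list had 20 of 44 above 0 without knockdown array 1. The replication list had 30 of 42 above 0 without knockdown array 2 and 26 of 42 without knockout-control array 2. The arrays differ over the whole table: 74% of all genes were higher on knockdown array 1, and 69.6% on knockout-control array 2. Whether these lists moved beyond all genes was not tested.

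Against wild type, the knockdown cells had 1 of 39 genes higher (Cdkn1a) and 0 lower, against 4% and 6% of all 13644 genes. The median was 0.06, against -0.03 over all genes. Both directions together, 10% of all genes were called, and 9.93% of all probe sets in the fit with 1 row each, where 4 of 80 probe sets of these genes rose and 0 fell. The arrays of both groups did not overlap for 16 of 36 genes, against 55% of all genes. Mdm2 came next to passing, and Ccna2 (0.44 ± 0.15) and Aurka (0.43 ± 0.15) followed with limma adjusted p = 0.112 and 0.118. Aurka was at -0.47 with the mean of its 2 probe sets (limma adjusted p = 0.0942), so its direction there depends on the probe set. This comparison shares its wild-type arrays with the first, so the values of Cdkn1a in both rest on the same pair of arrays.

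Of the further mitosis genes, 3 of 46 rose and 0 fell from wild type to knockdown cells, against 4% of all genes called higher and 6% lower. From wild type to knockout-control 0 of 46 were called in limma, against 6.05% of all genes. In that comparison 6 had an unadjusted p under 0.05 (13%, against 21.1% of all genes). The 3 genes that rose from wild type to knockdown cells were Ncapg, Smc4 and Incenp. Ncapg, a condensin subunit, rose 1.82-fold (0.87 ± 0.17, limma adjusted p = 0.0174). Smc4, also of condensin, rose 1.69-fold (limma adjusted p = 0.0482), and Incenp, of the Aurora B complex, 1.6-fold (limma adjusted p = 0.0431). With each array left out in turn, Ncapg kept its call in 4 of 6 fits, Smc4 in 1 of 5 and Incenp in 1 of 6 (limma adjusted p up to 0.171, 0.267 and 0.275). Smc4 had a value on 1 knockdown array only, and Incenp was at 0.15 with the mean of its 5 probe sets (limma adjusted p = 0.62). Of the 42 further replication genes, Tipin, a protein of the replication fork, fell 1.99-fold in knockout-control (-0.99 ± 0.19, limma adjusted p = 0.0211) and 1.67-fold in knockdown cells (limma adjusted p = 0.044). Tipin stood at 3001 and 3317 in wild type, 1402 and 1766 in knockout-control, and 2173 and 1629 in the knockdown group, with both wild-type arrays above the rest. These calls were kept in 3 of 6 and 1 of 6 fits with an array left out (limma adjusted p up to 0.164 and 0.276).

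Of 32 further RB, E2F and kinase regulators, 1 rose and 1 fell against wild type in each knockout group, where 6.05% and 10% of all genes were called. Cdkn1c, which encodes the kinase inhibitor p57, stood at 9708 and 9404 in wild type, 1246 and 1555 in knockout-control, and 1322 and 1071 in the knockdown group. Cdkn1c dropped 6.73-fold in knockout-control and 7.84-fold in knockdown cells (limma adjusted p = 0.000141 and 9.52e-05), and all 6 fits with an array left out kept both calls. Mycn, a proto-oncogene of the Myc family, rose 1.88-fold and 2.09-fold (limma adjusted p = 0.00765 and 0.00328), from 3359.9 and 3283 to 6458 and 6114 and to 7201 and 6778. With the mean of its 3 probe sets Mycn lost both calls, at 0.29 and 0.14 (limma adjusted p = 0.299 and 0.577), and its first call was kept in 3 of 6 fits with an array left out (limma adjusted p up to 0.0978).

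Genes known as p53 targets moved in both directions. Of 26 above the filter, 2 rose and 2 fell in knockout-control (median 0.08), where 2.55% of all genes were called higher and 3.5% lower. In knockdown cells against wild type 6 rose and 2 fell (median 0.12, against -0.03 over all genes), where 4% of all genes were called higher and 6% lower. Trp53inp1 is counted in both. Trp53inp1, a stress-induced nuclear protein, was at 1726 and 1785 in wild type, 5985 on knockout-control array 1 and 5082 on knockdown array 1, with no value on the other 2 arrays. The fit called it higher, 3.37-fold and 2.86-fold (limma adjusted p = 0.00441 and 0.00624), but each knockout group is 1 array here and is assumed to vary as the wild-type arrays of this gene and the other genes do. Sesn1, a sestrin of the stress response, rose 2.75-fold and 1.78-fold, from 512.7 and 560.2 to 1398 and 1669 and to 1022 and 933.2 (limma adjusted p = 0.00132 and 0.0137).

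Phlda3, an inhibitor of Akt signalling, changed the other way, dropping 2.23-fold in knockout-control and 2.37-fold in knockdown cells (limma adjusted p = 0.00391 and 0.0024). Ephx1, an epoxide hydrolase, fell 1.95-fold in knockout-control (limma adjusted p = 0.0386), and Aen, a nuclease of apoptosis, fell 1.88-fold in knockdown cells (limma adjusted p = 0.018). Zmat3 (1.86-fold) and Apaf1, the apoptosome scaffold (1.81-fold), also rose in knockdown cells against wild type (limma adjusted p = 0.0232 and 0.0266), as did Btg2 and Dcxr. With an array left out, Ephx1 kept its call in 3 of 6 fits, and Aen, Zmat3 and Apaf1 each in 4 of 6 (limma adjusted p up to 0.257, 0.151, 0.197 and 0.209). With the mean of probe sets Aen was at -0.30 and Apaf1 at 0.86, and neither passed (limma adjusted p = 0.355 and 0.0737). Phlda3 kept both calls in all 6 fits with an array left out, and Sesn1 kept its knockout-control call in 6 of 6 and its knockdown call in 4 of 6 (limma adjusted p up to 0.141). For Trp53inp1 the single array of a knockout group could not be left out.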

How the data were processed

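The authors deposited linear intensities of 45037 probe sets on 6 arrays. How they summarised, scaled and background-corrected them is not given in the sources used here. Cells with the word null (5285) or empty (870) count as missing values. Names came from the platform annotation, updated by Entrez identifier (GRCm38.p6 gene table): 34945 had 1 symbol, 34741 of them matched, and the 932 with several symbols and 9160 with none were not used. The brightest probe set represented a gene. Levels of different probe sets were not compared.

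Values were log2(intensity + 32), a scale that understates changes near background. Group means were fitted to all 6 arrays with limma 3.58.1 in R 4.3.3 (3 residual and 5.45 prior degrees of freedom), tested on simulated data, with Benjamini-Hochberg adjustment and a threshold of 0.05. Errors are standard errors of the fit. With 2 arrays per group, their number limits the precision. The p-values set a difference against the spread between arrays of a group, moderated over genes. Whether that spread covers different lines is not known here. Ccne2, Mcm7 and Rrm1 had an empty cell on knockdown array 2, so their knockdown values rest on 1 array. The genes and lists were chosen with earlier results of these data known. Named genes were all 42, with array values for called genes and a fixed set, and up to 4 called genes of each related list by direction. Alternatives were another pseudocount, filter, scaling, probe set rule, limma setting, samples fitted, a replicate block and leaving out each array.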

Additional observations from a re-analysis of the deposited data

How the results depend on the processing

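Counts of the 39 genes called moved with the processing, while no called change reversed in any alternative with 1 value per gene. The fit with 1 row per probe set was not part of that check. From wild type to knockout-control the count was 2. It was 1 with a pseudocount of 1, with no filter on dim genes and with the replicate block. It was 3, with Mcm7 added, with a pseudocount of 100, with trend and robust settings and with a filter set at the 60th percentile. The count was 7 after quantile normalization, 4 after median scaling, 0 with the mean of probe sets and 5 when only both groups compared were fitted. It ranged from 1 to 5 with each array left out. From knockout-control to knockdown the count was 0, with 2 (Aurka and Ccnd2) after quantile normalization and 0 in each fit that left out an array. From wild type to knockdown the count was 1. It was 2 with a pseudocount of 100, with trend and robust settings and with a filter set at the 60th percentile, 11 after quantile normalization, 3 after median scaling and 0 with the mean of probe sets. It ranged from 1 to 5 with each array left out, the 5 being without knockdown array 2 (Aurka, Bub1, Ccnd2, Cdkn1a and Mdm2). Cdkn1a kept both calls in every setting tried except the mean of probe sets.

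The replicate numbers of the titles were checked for pairing: deviations of same-numbered arrays correlated at 0.20, -0.50 and -0.15 over genes for the 3 comparisons, and only 2 numbers exist, so they were not taken as pairs. The replicate block changed the count of genes called over the whole table from 826 to 410, 114 to 22 and 1365 to 735. With the 2 knockdown numbers crossed in the block, an alternative added after seeing the data, 7, 3 and 3 of the 39 genes were called. With 1 row per probe set, also added, 4 genes were called from wild type to knockdown and 3 from wild type to knockout-control. Over all genes the counts ranged from 232 to 1786, 8 to 539 and 327 to 2339 with each array left out. They were 364, 9 and 585 with no filter, 1653, 381 and 2301 after quantile normalization, 1604, 369 and 2185 after median scaling, 474, 13 and 778 with the mean of probe sets, and 2037, 764 and 2821 with the crossed block. Fitting only both groups gave 1786 and 47 in the first 2 comparisons. In the second, a pseudocount of 1 gave 68 and of 100 gave 216, the higher filter 199, and trend and robust settings 325. With 1 row per probe set, 1435 and 2256 probe sets were called in the first and last comparison. Quantile normalization moved the median over all genes in the second comparison from -0.01 to 0.05. The median over the 39 genes lay between 0.03 and 0.11, -0.09 and 0.16, and -0.02 and 0.22 with each array left out. The cause of these shifts was not tested.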

Other observations

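Several genes have probe sets that read differently. Ccnd1, cyclin D1, was level in its brightest probe set, at 275.3 and 296.8 in wild type, 283.9 and 293.5 in knockout-control, and 250.9 and 238.3 in the knockdown group. Another (1417420_at) stood at 155 and 163.8, 330 and 379.7, and 227.3 and 169.7, a rise of 1.01 ± 0.17 in knockout-control with 1 row per probe set (limma adjusted p = 0.0115). For E2f1, a dimmer probe set (1417878_at) stood at 381.6 and 305.9 in wild type, 552.2 and 635.1 in knockout-control, and 708.7 and 483.2 in the knockdown group. Its value of 0.74 ± 0.21 in knockout-control missed the threshold (limma adjusted p = 0.0723), beside 0.29 for the brightest probe set.

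Kif11 had 3 probe sets above the filter, and 1 of them (1452315_at) passed from wild type to knockdown, at 458.9 and 423.8 against 840 and 659.7 (0.72 ± 0.17, limma adjusted p = 0.0293). The brightest was at 0.27 ± 0.19. A dimmer Mdm2 probe set (1427718_a_at) also passed from wild type to knockdown (0.75 ± 0.17, limma adjusted p = 0.0262), against 0.60 for the brightest. Over the 26 genes with further probe sets above the filter, 34 of 41 such probe sets had the sign of the brightest from wild type to knockout-control, 34 of 41 from knockout-control to knockdown and 29 of 41 from wild type to knockdown.

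All 4 probe sets of Tyms, whose product makes thymidylate for DNA synthesis, were below the filter on average. The brightest stood at 105.3 and 123.8 in wild type, 100.3 and 124.7 in knockout-control, and 73.6 and 52.8 in the knockdown group, and it was not tested. Both knockdown arrays were the lowest of the 6 in that probe set, but not in any of its others.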
